A study of Mus musculus with 18 samples.

Results

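Kidneys of 7-day-old mice labelled Aprt KO were compared with kidneys of their 7-day-old control littermates. The comparison used 12 of the 18 arrays of the series, chosen by their labels alone. Of these, 6 were labelled control and 6 were labelled Aprt KO, with 1 array per mouse, and each Aprt KO mouse had 1 control littermate of its own sex. This gave 6 pairs, 3 male and 3 female. All mice were of strain C57 per the labels. The series text gives the knockout genotype as Aprt-/- and the comparison genotype as Aprt+/+, while the labels say only Aprt KO and control. The sources used here do not describe the targeted allele. Total kidney RNA was hybridised as biotin-labelled cRNA to Affymetrix arrays. The other 6 arrays, from 3 pairs aged 1 month, were used only to compare the ages.

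Aprt encodes adenine phosphoribosyltransferase, which returns free adenine to the nucleotide pool. Without it, adenine is oxidised by xanthine dehydrogenase to a dihydroxyadenine that dissolves poorly in urine and crystallises in the kidney. Crystals in a tubule are known to injure its epithelium. An injured tubule makes secreted proteins such as lipocalin, takes up keratins of simple duct epithelium, releases chemokines that draw in monocytes, and gives up part of its transport programme. Interleukin and growth factor receptors on such cells act through the transcription factors STAT3, NF-kB and AP-1, and Socs3 and Bcl3 are known targets and regulators of these pathways. In the mouse, nephrons are still being completed in the first days after birth, so that a kidney at 7 days holds both mature and maturing tubules.

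The deposited values are signals, that is, intensities on a linear scale that rise with the amount of a transcript. After trimming 2% at each end, the mean signal of each array was 500.2 to 500.3, so the arrays had been brought to a common level before deposit. Differences were computed as log2(signal + 29) of the array labelled Aprt KO minus that of its littermate. The mean of this difference over the 6 pairs is called the log2 fold change, and it understates the change of dim genes. A probe set was called when its limma adjusted p, from a model with the litter pair as a block, was under 0.05. A gene is described by its brightest probe set. Levels of different genes were not compared, because probe sets differ in how they bind.

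The targeted gene gave a weak check of the labels. The brightest of the 3 Aprt probe sets stood at the 35th percentile of mean signal, below the level needed to be tested with the others. It read 51.3, 139.6 and 148 in the controls and 41.9, 56 and 135 in the arrays labelled Aprt KO, these 3 values being the lowest, the median and the highest of 6 arrays here and below. The groups overlapped, the signal was lower in 5 of 6 pairs, and the log2 fold change (-0.58, SE 0.21) missed the threshold (limma adjusted p = 0.0594 over these 3 probe sets). The other 2 probe sets had log2 fold changes of 0.10 and 0.13. Against the midpoint between the group medians, a signal of 97.8, the controls of pairs 1 and 2 and the array labelled Aprt KO of pair 4 lay on the other group's side. It is not known here whether these probes lie in the altered part of the gene. Groups are therefore named by their labels throughout.

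Some arrays stood apart. Both arrays of pair 4 had a compressed upper range, with highest signals of 10167 and 10767 against 25718 to 35783 on the other 10 arrays. The control of pair 3 read over 2-fold above all 5 other controls for 31 of 5746 genes, the largest such number among the 12 arrays, and 24 of the 31 belonged to the antigen presentation or interferon lists. The same control read over 2-fold below all 5 other controls for 35 genes. Such falls within their own group numbered 26 in its littermate labelled Aprt KO. In pair 4 they numbered 29 in the control and 32 in the array labelled Aprt KO. Adrenal genes were high in 4 arrays. Cyp11a1, the first enzyme of steroid synthesis, read 534, 445 and 442 in the controls of pairs 1, 2 and 6 and 466 in the array labelled Aprt KO of pair 2, against 9.15 to 24.8 in the other 8 arrays. The labelled sex fitted the levels of Xist and Eif2s3y on all 12 arrays.

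Of 6771 probe sets tested, 339 were called higher in the arrays labelled Aprt KO (5.01%) and 237 lower (3.5%), which are 309 and 228 genes. Counted by the brightest probe set alone, 300 of 5746 genes were higher (5.22%) and 218 lower (3.79%). Of the called genes, 103 had over 1 probe set tested. Of these, 0 had probe sets called both ways, and 11 had another tested probe set of the other sign. The rises were larger than the falls. The median log2 fold change was 0.57 among probe sets called higher and -0.36 among those called lower, beside -0.02 over all probe sets tested. More than 2-fold changes comprised 60 genes that rose and 3 that fell, and 16 genes rose more than 4-fold. The 6 signals of one group lay wholly above those of the other for 137 of the probe sets called higher and 33 of those called lower, and for 177 of all 6771 tested (2.61%). The direction was the same in all 6 pairs for 314 of 339 and 216 of 237. These probe sets were called from the same 6 differences, so their shared direction is not separate support.

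These counts rest on comparing littermates. Without the litter pair in the model, 167 probe sets were called higher and 40 lower, all of them among the calls above, and the higher share of calls moved from 58.9% to 80.7%. Of 168 named genes called, 58 lost the call in that model. They were Ephx1, Cd74, Ifitm3, Rsad2, Irf8, Il6ra, Nfkbia, Birc3, Rela, Col1a1, Col3a1, Col6a3, Postn, Itih5, Jak3, Gadd45b, Gadd45g, Hspb8, Cldn3, Napsa, Gusb, Pvalb, Casq1, Tyms-ps, Acta2, Pdgfa, Lgmn, Eln, Agt, Icam2, Emcn, Bmp7, Npnt, Ccnd1, Foxm1 and Tk1, the tubule genes Miox, Kap, Slc12a1, Slc12a3, Slc34a1, Lrp2, Cubn, Aqp1, Cyp2e1 and Slc22a17, and the metabolic genes Pfkm, Pdk1, Sdhb, Ndufc1, Ndufb10, Uqcr11, Etfa, Gcsh, Fabp3, Acadm, Oxct1 and Pnp. The same model left 0 of 14 falls in the respiratory chain, 5 of 15 in the proximal tubule, 4 of 9 in oxidative stress and glutathione, 4 of 18 rises in the extracellular matrix, 9 of 15 in cytokine signalling and 5 of 10 in smooth muscle and stroma. The number called lower was 141 without pair 2 and 139 without pair 6. In the 3 pairs whose Aprt signals lay on the sides of their labels (pairs 3, 5 and 6), 128 were called higher and 24 lower.

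**Figure D1:**
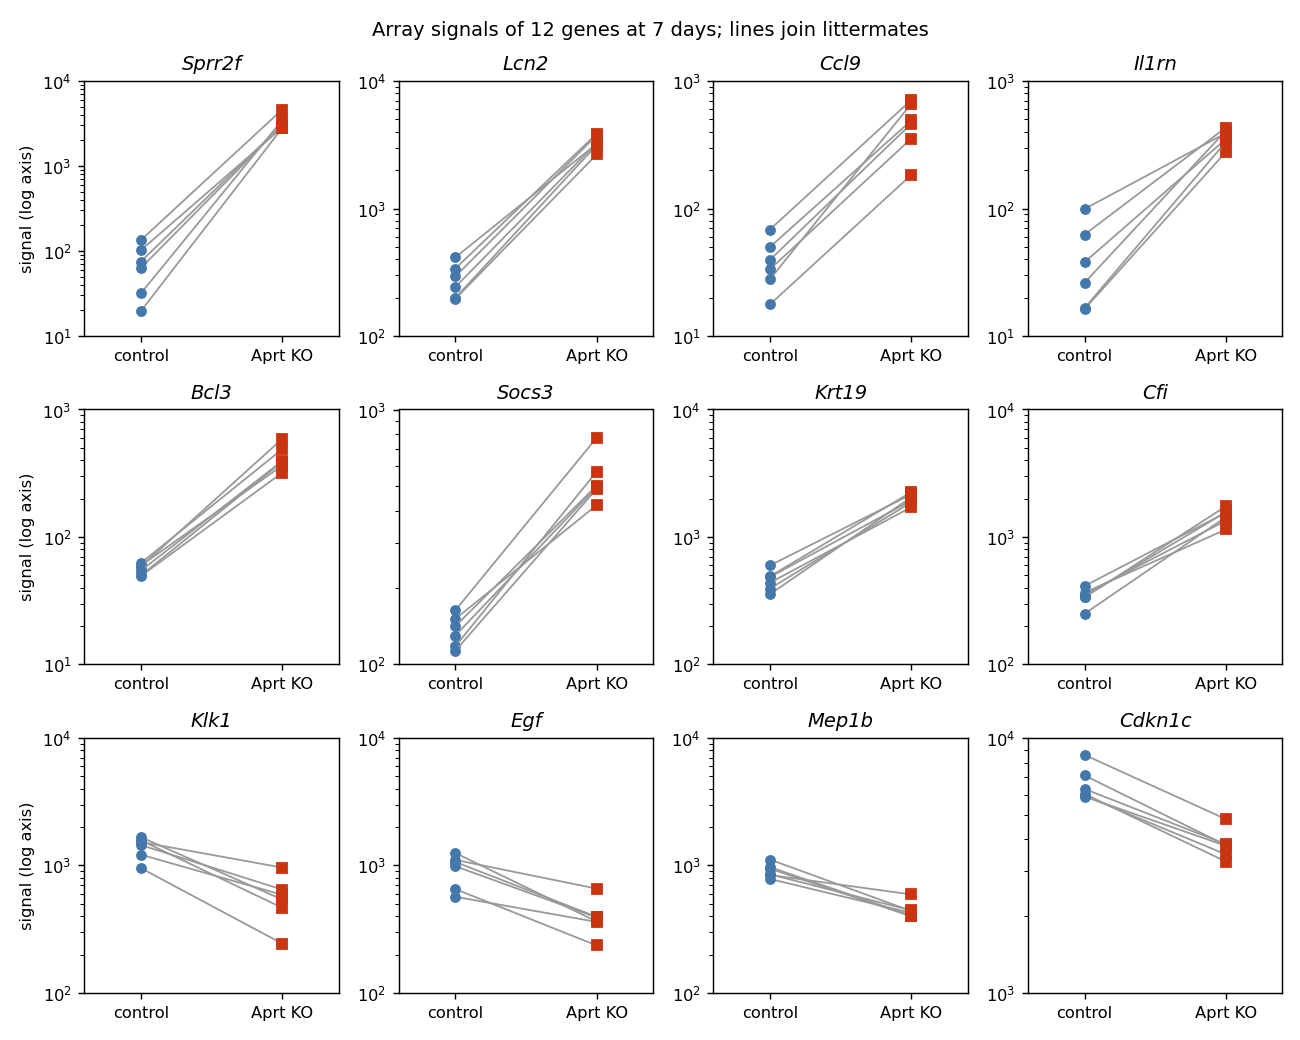
Signals of 12 genes on each 7-day array, on log axes. Blue circles are controls, red squares are arrays labelled Aprt KO, and each grey line joins 2 littermates. For Sprr2f, Lcn2, Ccl9, Il1rn, Bcl3, Socs3, Krt19 and Cfi each red square lies above each blue circle. For Mep1b and Cdkn1c each lies below, and for Klk1 and Egf each line falls although the groups overlap.

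The largest rise was that of a gene of stratified epithelium. Sprr2f, a small proline-rich protein of epithelial barriers, read 19.5, 68.9 and 134 in the controls and 2796, 3045 and 4610.4 in the arrays labelled Aprt KO. The lowest signal labelled Aprt KO lay far above the highest control, and the log2 fold change was 5.16, SE 0.17 (limma adjusted p = 5.32e-08). Its relatives Sprr2i (1.30), Sprr2g (1.12), Sprr2e (0.76) and Sprr2b (0.56) were also called higher. These 5 probe sets carry suffixes for probes shared with similar transcripts, so the members of this family cannot be told apart with certainty. The probe sets of Jak3, named above, and of Socs3, Atf3, Cryab, Anxa1, Cd68, Cnn1, Sdhb and H2-D1, described below, have such suffixes too. Those of Cubn, Emcn, Foxm1 and Junb carry other suffixes, and whether they read 1 gene alone was not tested.

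Lcn2, the lipocalin that binds bacterial siderophores and is shed by damaged tubules, read 196, 268 and 414 in the controls and 2657, 3249 and 3864 in the arrays labelled Aprt KO. The groups lay far apart, with differences of 2.88 to 3.80 in single pairs, and the log2 fold change was 3.47, SE 0.10 (limma adjusted p = 4.93e-08). A second, dimmer Lcn2 probe set had a log2 fold change of 0.10. Slc22a17, a receptor for lipocalin, was lower in 6 of 6 pairs (-0.30, SE 0.06, limma adjusted p = 0.0101).

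Of 26 tested tubular injury genes, 17 were called higher, 1 was called lower and 8 were not called, with a median log2 fold change of 0.62. Over all genes tested, 5.22% were called higher and 3.79% lower, with a median of -0.02. Of all genes tested, 45.4% had a log2 fold change above 0. The counts of the other lists are to be read against these shares. The filter, a signal of 123, used the mean over both groups. Il1rn, Bcl3, Egr2 and Fos, described below, had control means of 43.1, 55.6, 91.2 and 107.6. Those of Cnn1, Hk2, Birc3 and Il6ra were 77.2, 71.7, 96 and 97.7. These genes, and Sprr2f described above, reached the filter only through the arrays labelled Aprt KO. The tubular injury, cytokine signalling, NF-kB and immediate early lists had 30, 42, 25 and 35 measured members. Their counts are therefore not shares of all members measured. Among the tubular injury genes that rose was Krt19, a keratin of simple ducts, which read 356, 461 and 598 in the controls and 1715, 1993 and 2252 in the arrays labelled Aprt KO (2.06, SE 0.08). Krt18 (1.10, SE 0.09), Krt8 (0.65, SE 0.06) and Krt7 (0.56, SE 0.08), its partners in simple epithelia, rose as well. Clusterin, Clu, a secreted chaperone, went from a mean signal of 1513 ± 181 to 5179 ± 1067 (SD, n = 6; log2 fold change 1.73). The leukocyte adhesion molecule Icam1 (1.48, SE 0.12), the tight junction protein Cldn4 (1.21, SE 0.11) and the calcium-binding S100a6 (1.19, SE 0.07) belonged to the same list. So did the protease inhibitor Timp1 (0.99, SE 0.10). The member that fell was the small heat shock protein Cryab (-0.79, SE 0.12). Outside the lists, the epithelial cell cycle regulator Sfn (1.36, SE 0.09) and the diamine oxidase Aoc1 (1.53, SE 0.10) were called higher with no overlap between the groups; both were chosen after their values were seen.

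Chemokines that draw in neutrophils and monocytes rose. Ccl9 read 17.7, 36.4 and 68.4 in the controls and 184, 477 and 710.5 in the arrays labelled Aprt KO, with the lowest value of each group in the arrays of pair 3, and its log2 fold change was 2.82, SE 0.17 (limma adjusted p = 3.51e-06). Cxcl5 read 5.95, 18.5 and 37.8 in the controls and 209, 284 and 333 in the arrays labelled Aprt KO (2.71, SE 0.20). Ccl2, the main monocyte attractant, read 5.91, 27.2 and 130.2 in the controls and 251, 302 and 354 in the arrays labelled Aprt KO (2.40, SE 0.26), and its highest control was that of pair 3. Cxcl1 (1.78, SE 0.18) and the membrane-bound Cx3cl1 (1.26, SE 0.09) were higher in 6 of 6 pairs without overlap. In these 5 genes the controls were dim except for Cx3cl1, which already read a median of 813 in controls. Of 11 chemokine genes tested, these 5 rose and the stromal chemokine Cxcl12 (-0.39) and the B cell attractant Cxcl13 (-0.56) fell. Without the litter pair in the model, 5 members were called higher and 0 lower. With a pair left out, 1 or 2 were called lower. A further 17 measured members were too dim to be tested. Ccl9, Cxcl5, Ccl2 and Cxcl1 had control means of 39.4, 18, 41.8 and 64.7, below the filter of 123. They reached it only through the arrays labelled Aprt KO, so 5 of 11 is not a share of all 28 measured.

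Called genes of cytokine signalling lay at several steps of the interleukin-6 family pathway. Il1rn, the secreted antagonist of the interleukin-1 receptor, read 16.3, 32 and 99.1 in the controls and 278, 371 and 432 in the arrays labelled Aprt KO (2.55, SE 0.17). Osmr, the oncostatin M receptor, read 66.5, 120.1 and 208 in the controls and 562, 693 and 863 in the arrays labelled Aprt KO (2.21, SE 0.14). The shared receptor chain Il6st (0.58, SE 0.08), the kinase Jak2 (0.60, SE 0.08) and the transcription factor Stat3 (0.58, SE 0.07) rose by less. Socs3, the feedback inhibitor that STAT3 induces, read 113, 136 and 163 in the controls and 422, 499.9 and 776 in the arrays labelled Aprt KO (1.78, SE 0.11, limma adjusted p = 4.45e-06), and no control overlapped. The interleukin-6 receptor Il6ra read 0.84, a call lost without pair 1, 2, 3 or 6 (limma adjusted p from 0.0507 to 0.0836). Of 28 members tested, 15 were called higher and 0 lower by limma (at an unadjusted p under 0.05, 0 lower), with a median of 0.46, and 26 had a log2 fold change above 0. Interleukin-1 receptor Il1r1 (0.92), the macrophage growth factor Csf1 (0.72) and its receptor Csf1r (0.64) were among them. A second, dimmer Csf1r probe set had a log2 fold change of 0.12 and was not called.

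In the NF-kB pathway, inhibitors and subunits of the alternative branch were among the genes that rose. Bcl3, a nuclear IkB protein, read 49.3, 56.4 and 62.3 in the controls and 319, 392 and 588 in the arrays labelled Aprt KO (2.40, SE 0.12, limma adjusted p = 1.11e-06), and the controls spanned a narrow range. Nfkbiz (0.94), Relb (0.74), Nfkb2 (0.63) and Nfkbia (0.48) rose, as did the endotoxin receptor Cd14 (1.74, SE 0.09). The subunit Rela read 0.30, a call lost without pair 1 or 6 (limma adjusted p 0.0594 and 0.061), and Birc3 read 0.92, a call lost without pair 1, 2 or 6 (0.0629 to 0.0678). Of 21 tested, 9 were called higher and 0 lower by limma (0 lower at an unadjusted p under 0.05), with a median of 0.22. Lymphotoxin Ltb (1.62, SE 0.17), named after its value was seen, rose from a median signal of 53.7 to 232.

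Immediate early transcription factors form the first transcriptional response of cells to growth factors and stress. Fos, an AP-1 subunit, read 60.3, 97.6 and 159 in the controls and 350.0, 368 and 691 in the arrays labelled Aprt KO, with the highest value in the female pair 2, and its log2 fold change was 1.74, SE 0.12 (limma adjusted p = 8.96e-06). Egr2 read 34, 97.7 and 125 in the controls and 363, 394 and 502 in the arrays labelled Aprt KO (1.93, SE 0.18). Ier3 (1.16), Junb (0.99), Nr4a1 (0.84), Atf3 (0.83), Egr1 (0.79), Cebpd (0.77), Cebpb (0.74) and Klf6 (0.70) were also higher in 6 of 6 pairs. Of 31 members tested, 18 were called higher and 1 lower, with a median of 0.38. The growth arrest genes Ddit4 (0.72) and Btg2 (0.45) rose, while 23 of 27 p53 and growth arrest genes were not called and the list's median was -0.0044.

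NF-kB, STAT, AP-1 and serum response factor act by binding short motifs in DNA. Stretches before the start sites of 6 genes that rose are shown because each holds such a motif, taken from RefSeq on build GRCm38.p6. Each holds the 200 bases before the start, 5′ to 3′ on the gene's own strand. The capitals mark a match to 1 motif, which is NF-kB in Cxcl1 and Ccl9, STAT (TTCNNNGAA) in Socs3, AP-1 (TGANTCA) in Il1rn and Sprr2f, and the serum response CArG box in Egr2.
Cxcl1 chr5:90891045-90891244, plus strand: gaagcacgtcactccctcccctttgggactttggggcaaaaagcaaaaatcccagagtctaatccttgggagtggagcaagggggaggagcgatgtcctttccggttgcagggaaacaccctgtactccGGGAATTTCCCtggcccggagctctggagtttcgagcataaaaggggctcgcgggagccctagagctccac
Ccl9 chr11:83578637-83578836, minus strand: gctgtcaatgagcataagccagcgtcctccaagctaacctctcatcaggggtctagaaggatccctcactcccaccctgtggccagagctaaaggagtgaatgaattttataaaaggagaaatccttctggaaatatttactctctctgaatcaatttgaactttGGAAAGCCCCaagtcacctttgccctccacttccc
Socs3 chr11:117969367-117969566, minus strand: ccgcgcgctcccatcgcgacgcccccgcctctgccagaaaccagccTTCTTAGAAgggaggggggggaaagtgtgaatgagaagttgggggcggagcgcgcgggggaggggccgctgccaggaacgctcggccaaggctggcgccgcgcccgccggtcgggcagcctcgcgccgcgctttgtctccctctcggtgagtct
Egr2 chr10:67537366-67537565, plus strand: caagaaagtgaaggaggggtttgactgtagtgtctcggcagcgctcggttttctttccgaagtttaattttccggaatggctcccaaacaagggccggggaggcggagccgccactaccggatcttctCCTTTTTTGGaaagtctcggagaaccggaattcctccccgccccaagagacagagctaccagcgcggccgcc
Il1rn chr2:24336660-24336859, plus strand: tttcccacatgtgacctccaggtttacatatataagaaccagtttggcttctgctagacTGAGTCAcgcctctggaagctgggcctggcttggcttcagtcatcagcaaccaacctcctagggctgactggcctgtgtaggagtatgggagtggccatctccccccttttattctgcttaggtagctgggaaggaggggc
Sprr2f chr3:92364987-92365186, plus strand: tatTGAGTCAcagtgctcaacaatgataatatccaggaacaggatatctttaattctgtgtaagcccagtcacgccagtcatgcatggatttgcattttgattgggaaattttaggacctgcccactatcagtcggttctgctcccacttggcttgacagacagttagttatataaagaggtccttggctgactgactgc
In Cxcl1 a forward and a reverse NF-kB match overlap by all but 1 base. The Ccl9 stretch also holds an AP-1 match, in lower case here. Motifs were searched on both strands in windows from 250 bases before to 50 after each start, and a gene counted if any of its windows held one. An NF-kB match was found in 13.2% of the 228 genes called higher that had a window, in 6.02% of the 166 called lower and in 6.07% of the 4645 tested genes with a window. An AP-1 match was found in 16.2% of the genes called higher, 6.63% of those called lower and 6.67% of those tested. The shares for STAT were 11% among genes called higher, 9.64% among those called lower and 7.92% of those tested. For CArG they were 1.75%, 1.81% and 1.81%. Of all 32851 windows, 4.5% held NF-kB, 8.3% STAT, 7.81% AP-1 and 1.63% CArG. These shares describe letters in a window, with no test, and are not evidence of binding.

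Most complement and acute phase genes tested rose. Serpina3n, an acute phase protease inhibitor, read 205, 274 and 297 in the controls and 1297, 1860.5 and 2443 in the arrays labelled Aprt KO (2.66, SE 0.15). Cfi, the protease that inactivates complement fragments, read 249.8, 349 and 413 in the controls and 1146, 1493 and 1742 in the arrays labelled Aprt KO (2.0, SE 0.10), a rise of similar size in each pair. The first-component subunits C1qa (1.49, SE 0.18), C1qb (1.32, SE 0.22) and C1qc (0.81, SE 0.14) and the inhibitor Serping1 (0.62, SE 0.07) were called higher. So were the copper oxidase ceruloplasmin, Cp (1.22, SE 0.14), and haptoglobin, Hp (0.74, SE 0.15). A second, dimmer C1qb probe set had a log2 fold change of 0.06 and was not called. Of 17 members tested 11 were called higher and 0 lower by limma (0 at an unadjusted p under 0.05), with a median of 0.58. Among 23 iron and heme genes, the 4 rises were Lcn2, Cp, Hp and the macrophage iron transporter Slc11a1 (0.74), and Slc22a17 fell.

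Markers of myeloid cells were the list with the largest share of calls. Of 27 tested, 22 were called higher and 0 lower by limma (0 at an unadjusted p under 0.05), with a median of 0.73, and 25 lay above 0. The macrophage elastase Mmp12 read 15.6, 42.9 and 96.2 in the controls and 500.2, 1303 and 3243 in the arrays labelled Aprt KO (4.25, SE 0.38); its rise ranged from 2.72 in pair 3 to 6.20 in pair 2. Lysozyme, Lyz2, read 120.5, 215 and 618 in the controls and 971, 1362 and 1696 in the arrays labelled Aprt KO (2.38, SE 0.27), and the highest control was again that of pair 3. The adaptor Tyrobp (1.65, SE 0.24), Cd53 (1.56, SE 0.27), Cd52 (1.39, SE 0.15) and lysosomal Cd68 (1.05, SE 0.12) rose. The calgranulin S100a8 (1.06, SE 0.21) of neutrophils and monocytes rose as well. The summed signal of the 27 genes was 13086 to 18206 in the controls and 20781 to 29393 in the arrays labelled Aprt KO. In whole kidney RNA, more cells of a type cannot be told apart from more RNA per cell. The median rise was 0.24 in pair 3 and 0.81 to 1.04 in the other 5 pairs. A further 22 measured markers were too dim to be tested. Mmp12 and Cd53 (control mean 71.1) reached the filter of 123 only through the arrays labelled Aprt KO. The 22 of 27 is therefore not a share of all 49 measured. Of 8 lymphocyte genes tested Thy1, which fibroblasts and nerve also make, rose (1.39, SE 0.09), and the other 7 were not called.

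Antigen presentation and interferon genes depended on 1 array. The summed signal of 25 antigen presentation genes was 17531 to 22373 in 5 controls, 65563 in the control of pair 3, and 26347 to 34615 in the arrays labelled Aprt KO. For 18 interferon genes it was 5586 to 6791 in the same 5 controls, 20284 in the control of pair 3, and 8584 to 9326 in the arrays labelled Aprt KO. Without that array no control reached the lowest Aprt KO sum of either list. The class II chain H2-Aa read 3163 in the control of pair 3, 199 to 403 in the other controls, and 833 to 1313 in the arrays labelled Aprt KO. The interferon-induced GTPase Iigp1 read 4594 in the control of pair 3 and 19.9 to 59.4 in the other controls, while its littermate labelled Aprt KO read 15.3 and the other 5 read 90.8 to 124. The immunoproteasome subunits Psmb8 and Psmb9 and the GTPase Gbp2 read 2727, 1052 and 814 in that control, against at most 356, 108 and 119.6 in the other 5.

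With all 6 pairs, 2 of the 25 antigen presentation genes were called higher, the protease Ctss (1.95, SE 0.31) and the invariant chain Cd74 (1.28, SE 0.35), each higher in 5 of 6 pairs, and the median was 0.21. The Cd74 call was lost without pair 1, 2, 4, 5 or 6 (limma adjusted p from 0.107 to 0.149). Without pair 3, limma called 16 of 23 tested members higher, with a median of 0.50, beside 4.96% of all 6773 probe sets called higher in that fit. H2-Aa then had a log2 fold change of 2.03 (limma adjusted p = 8.84e-05), H2-Ab1 1.29 (1.8e-05), H2-Eb1 0.97 (0.000126), Psmb8 0.81 (0.000374), the class I heavy chain H2-K1 0.69 (0.000131) and its light chain B2m 0.41 (0.00731). With all pairs their adjusted p lay between 0.119 and 0.734. Pair 3 was singled out by its control's high signals in these same antigen presentation and interferon genes. The adjusted p without it are therefore not separate support. With each pair left out in turn, 1 to 16 antigen presentation members were called higher. H2-K1 carries shared probes. Of the interferon genes, 2 of 18 were called higher and 1 lower with all pairs, and 4 of 15 were called higher without pair 3. The interferon regulatory factor Irf1 read 0.66 without pair 3 (0.00103) and 0.44 with it (0.144). Of the 3 calls with all pairs, Ifitm3 (0.60) was lost without pair 1, 2 or 5 (limma adjusted p 0.0523 to 0.0582), Irf8 (0.29) without pair 1, 2, 4, 5 or 6 (0.0896 to 0.126) and Rsad2 (-0.53) without pair 1, 2, 3, 5 or 6 (0.0577 to 0.112).

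**Figure D2:**
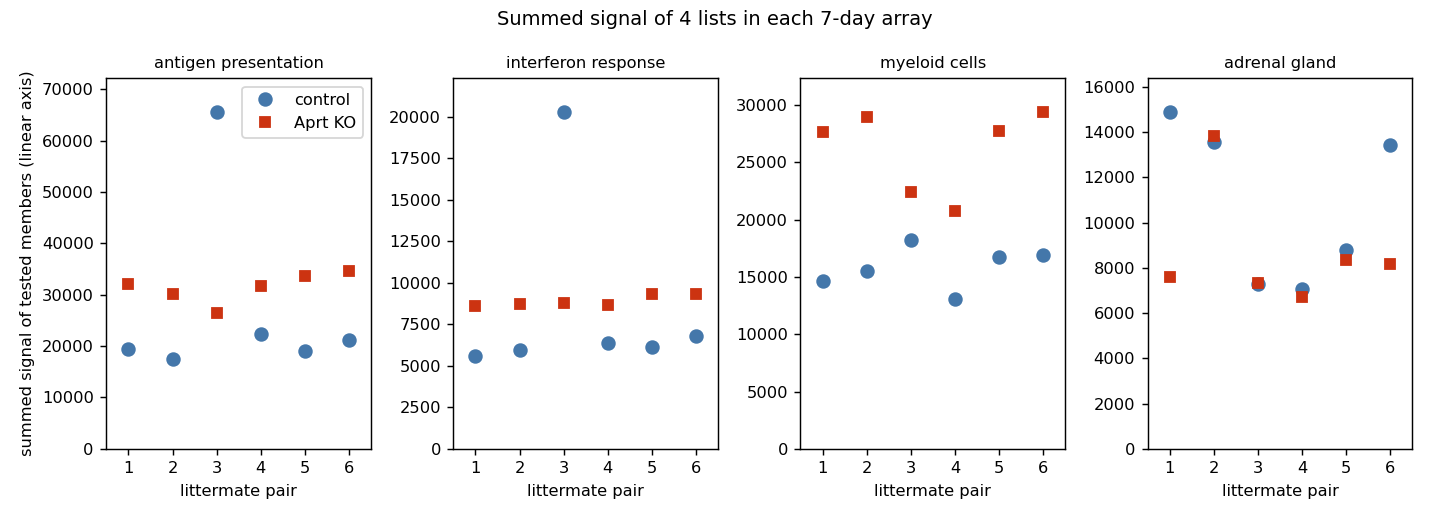
Summed linear signal of the tested members of 4 lists on each 7-day array, by littermate pair (x axis). Blue circles are controls and red squares are arrays labelled Aprt KO. The control of pair 3 reads 65563 for antigen presentation and 20284 for interferon genes, far above the other controls. The adrenal sums are highest in the controls of pairs 1, 2 and 6 and the array labelled Aprt KO of pair 2, between 13449.9 and 14887.

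A part of the matrix and smooth muscle genes rose. Mgp, the matrix protein that inhibits calcification, read 1010.0, 1429 and 1462 in the controls and 2504, 3315 and 4025 in the arrays labelled Aprt KO (1.32, SE 0.06, limma adjusted p = 9.86e-07), and its probe set is one with shared probes. Tenascin, Tnc (1.30, SE 0.12), and Tgfbi (1.20, SE 0.08), both made by activated stroma, and Col6a3 (0.61, SE 0.06) rose in 6 of 6 pairs. The fibrillar collagen Col1a1 read 5127, 6309.9 and 9363 in the controls and 6318, 8598 and 11049 in the arrays labelled Aprt KO. These ranges overlapped, the log2 fold change was 0.39, SE 0.09, and its call was lost without pair 1 (limma adjusted p = 0.062). A second Col1a1 probe set, with a mean signal of 2280, had a log2 fold change of 0.10 (limma adjusted p = 0.467). It was higher in 4 of 6 pairs. Col3a1 read 0.27, a call lost without pair 3, 4, 5 or 6 (0.0526 to 0.0725), and Postn 0.40. Of 58 matrix genes tested, 18 were called higher and 3 lower, with a median of 0.17. The 3 falls were Col26a1 (-0.80, SE 0.12), the proteoglycan Ogn (-0.76, SE 0.11) and the basement membrane protein Nid2 (-0.44). Of 24 matrix proteases and inhibitors 7 rose and 0 fell by limma (1 lower at an unadjusted p under 0.05). The rises included Mmp12, Ctss, Timp1 and the lysosomal proteases Lgmn (0.63) and Ctsc (0.90).

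Contractile genes of smooth muscle and myofibroblasts were among them. Calponin, Cnn1 (1.65, SE 0.28), Tagln (0.84, SE 0.10), Myh11 (0.64, SE 0.14), Tpm1 (0.59, SE 0.05) and smooth muscle actin, Acta2 (0.47, SE 0.09), were called higher. Of 23 members 10 rose and 1, the growth factor Pdgfa, fell, with a median of 0.25. Median rises of this list were 0.18 to 0.36 in the 6 pairs.

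The falls were led by the distal nephron. Klk1, tissue kallikrein of the connecting tubule, read 954, 1486 and 1669 in the controls and 244, 565 and 962 in the arrays labelled Aprt KO. Each array labelled Aprt KO lay below its littermate, the groups overlapped through the control of pair 4, and the log2 fold change was -1.32, SE 0.14 (limma adjusted p = 0.000238). Its probe set and that of Klk1b5 (-0.87, SE 0.13) hold probes shared within the kallikrein family. Egf, made in the thick limb and distal convoluted tubule, read 568, 1026 and 1251 in the controls and 236, 377 and 657 in the arrays labelled Aprt KO (-1.18, SE 0.13). Hsd11b2, which keeps cortisol-like steroids off the mineralocorticoid receptor, fell by 0.79 on the log2 scale (SE 0.09), and both arrays of pair 3 were the lowest of their groups. The calcium-binding S100g (-0.70, SE 0.06), the thiazide-sensitive cotransporter Slc12a3 (-0.53, SE 0.07), the potassium channel Kcnj1 (-0.41, SE 0.06) and the transporter Slc16a7 (-0.66, SE 0.11) fell. The furosemide-sensitive cotransporter Slc12a1 read -0.28, a call lost without pair 6 (limma adjusted p = 0.0577). Of 20 thick limb and distal tubule genes tested, 10 were called lower and 0 higher by limma (0 at an unadjusted p under 0.05), with a median of -0.29. Umod, the most abundant urinary protein of the thick limb, read 0.02 (SE 0.07) and was higher in 3 of 6 pairs. The list's median lay below 0 in all 6 pairs, from -0.51 in pair 4 to -0.23 in pair 6.

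Some proximal tubule genes fell. Mep1b, a brush border protease, read 783, 898 and 1113 in the controls and 398, 431 and 592 in the arrays labelled Aprt KO (-0.99, SE 0.10), and the array labelled Aprt KO of pair 3 was the highest of its group. Dpep1 (-0.65, SE 0.08), the inositol oxygenase Miox (-0.60, SE 0.06) and the angiotensin-converting enzyme Ace (-0.43, SE 0.07) were lower in 6 of 6 pairs. The endocytic receptor Lrp2 (-0.31, SE 0.06), the water channel Aqp1 (-0.41, SE 0.06) and the phosphate cotransporter Slc34a1 (-0.32, SE 0.05) fell as well. Cubn, the partner receptor of Lrp2, read -0.28, a call lost without pair 2 or 6 (limma adjusted p 0.0589 and 0.0523). Kap, the kidney androgen-regulated protein, fell by 0.34 on the log2 scale (SE 0.06), lower in 6 of 6 pairs with overlapping groups, and lost its call without the litter pair in the model. Of 53 members tested 15 were called lower, 3 higher and 35 not called, with a median of -0.13. The 3 rises were the vitamin D hydroxylase Cyp24a1 (1.28, SE 0.13), the guanylin relative Guca2b (1.21) and Cyp2e1 (0.58). In vitamin D and retinoid handling, Klotho, Kl (-0.54, SE 0.07), the retinoic acid enzyme Aldh1a3 (-0.82, SE 0.12) and S100g fell; 5 of 16 genes of that list were called lower and Cyp24a1 alone was called higher.

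The collecting duct list split. Of 24 tested, 4 were called higher, namely Krt19, Krt18, Krt7 and the epithelial factor Elf3 (0.98, SE 0.12), and 5 were called lower, with a median of -0.18. The falls included Hsd11b2 and the anion exchanger of intercalated and red cells, Slc4a1 (-0.79, SE 0.09). The rising members are keratins and a factor shared with other simple epithelia. Of 6 blood genes tested, Slc4a1 was the 1 called.

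Few genes of vessels, glomeruli, nephron formation and the cell cycle were called. Cdkn1c, an imprinted cell cycle inhibitor that podocytes express, read 5891, 6172 and 8585 in the controls and 3274, 3786 and 4802 in the arrays labelled Aprt KO. The groups did not overlap, and the log2 fold change was -0.79, SE 0.05 (limma adjusted p = 5.2e-06). Of 17 podocyte genes, Cdkn1c and Npnt (-0.23) were called lower and 0 higher by limma (2 at an unadjusted p under 0.05). Of 28 endothelial genes, 3 were called lower, Icam2 (-0.46, SE 0.09), Ramp2 (-0.27) and Emcn (-0.36, lost without pair 2, 4 or 6, limma adjusted p 0.0641 to 0.078), and 2 rose, Igfbp3 (0.71, SE 0.10) and elastin, Eln (0.30). Of 31 nephron formation genes 2 were called lower, Aldh1a3 and Bmp7 (-0.33, lost without pair 1, 2, 4, 5 or 6, limma adjusted p 0.0914 to 0.118). Of 60 cell cycle genes, the cyclin Ccnd1 (-0.36, SE 0.06) and the thymidine kinase Tk1 (-0.35) were called lower and Foxm1 (0.46) higher. The median of the cell cycle list was -0.11, with 11 of 60 above 0. Its pair medians ran from -0.32 in pair 1 to 0.12 in pair 3. The Tk1 call was lost without pair 1, 3, 5 or 6 (limma adjusted p 0.0595 to 0.0997) and that of Foxm1 without pair 2 or 4 (0.0564 and 0.052). A second, dimmer Foxm1 probe set had a log2 fold change of -0.33 and was not called. Among 18 vasoactive genes, Npy (-0.99, SE 0.12), the kallikreins, Ace, kininogen Kng1 (-0.34) and the prostaglandin receptor Ptger1 (-0.83) were called lower, while Ptger4, another prostaglandin receptor (1.31, SE 0.13), and angiotensinogen, Agt (0.62, SE 0.07), were called higher. Adrenal medulla also makes Npy. In the adrenal list limma called 0 of 12 members (3 lower at an unadjusted p under 0.05), 0 of 12 had a log2 fold change above 0, and the median was -1.14 in pair 1 and -0.92 in pair 6, against -0.07 to 0.32 in the other 4 pairs. Npy was lower in each of those 4 pairs too, and the part of adrenal RNA in its fall was not tested.

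Some genes of mitochondrial energy supply fell, by small amounts. Of 61 respiratory chain genes 14 were called lower and 0 higher by limma (0 at an unadjusted p under 0.05). In this list 59 lay below 0, and the median was -0.14. Over all genes the median was -0.02, and 45.4% lay above 0. Sdhb (-0.27, SE 0.05), Ndufc1 (-0.26, SE 0.05) and Uqcr11 (-0.25, SE 0.05) were among the calls, and the largest fall, that of Ndufs1, was -0.30. The 14 falls became 3 without pair 1, 5 without pair 2, 8 without pair 4 and 7 without pair 5 or 6. Of 44 fatty acid oxidation and peroxisome genes 6 fell and 0 rose by limma (2 higher at an unadjusted p under 0.05). The falls included Fabp3 (-0.57, SE 0.07), the dehydrogenase Acadm (-0.38, SE 0.05) and the ketone-using enzyme Oxct1 (-0.49, SE 0.08). Glutathione transferases Gsta2 (-0.74, SE 0.10), Gsta4 (-0.71, SE 0.10) and Gstm2 (-0.51, SE 0.06) fell in a list of 51 with 9 lower (5 without pair 1, 2, 5 or 6) and 2 higher. A second, dimmer Gstm2 probe set had a log2 fold change of 0.08 and was not called. Epoxide hydrolase Ephx1 read -0.76, a call lost without pair 1, 2, 4, 5 or 6 (limma adjusted p from 0.0567 to 0.143). The aldo-keto reductase Akr1b8 (0.86, SE 0.07) rose. In the choline and amino acid list Dmgdh (-0.82, SE 0.14) and Gstz1 (-0.59, SE 0.10) fell and arginase Arg2 (0.96, SE 0.10) rose, with 4 of 25 lower and 1 higher.

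Of 25 purine and polyamine genes tested, the pathway to which Aprt belongs, 22 were not called. Ak4, an adenylate kinase of mitochondria, fell (-0.88, SE 0.11), while purine nucleoside phosphorylase, Pnp (0.31, SE 0.05), and the polyamine acetylase Sat1 (0.62, SE 0.11) rose. Hprt, the hypoxanthine salvage enzyme, read 0.15 (SE 0.05, limma adjusted p = 0.107). Xdh was too dim to be tested, with signals of 7.71, 29.4 and 59.3 in the controls and 12.2, 37 and 51.3 in the arrays labelled Aprt KO. The glycolytic hexokinase Hk2 (1.36, SE 0.19) was called higher and phosphofructokinase Pfkm (-0.41, SE 0.07) lower. Of 12 crystal binding and calcification genes, Mgp, S100a8 and annexin Anxa1 (0.67, SE 0.06) rose and Itih5 (-0.65, SE 0.11) fell. Among 20 chromosomal neighbours of Aprt tested, Irf8 was called higher and Dpep1 lower.

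**Figure D3:**
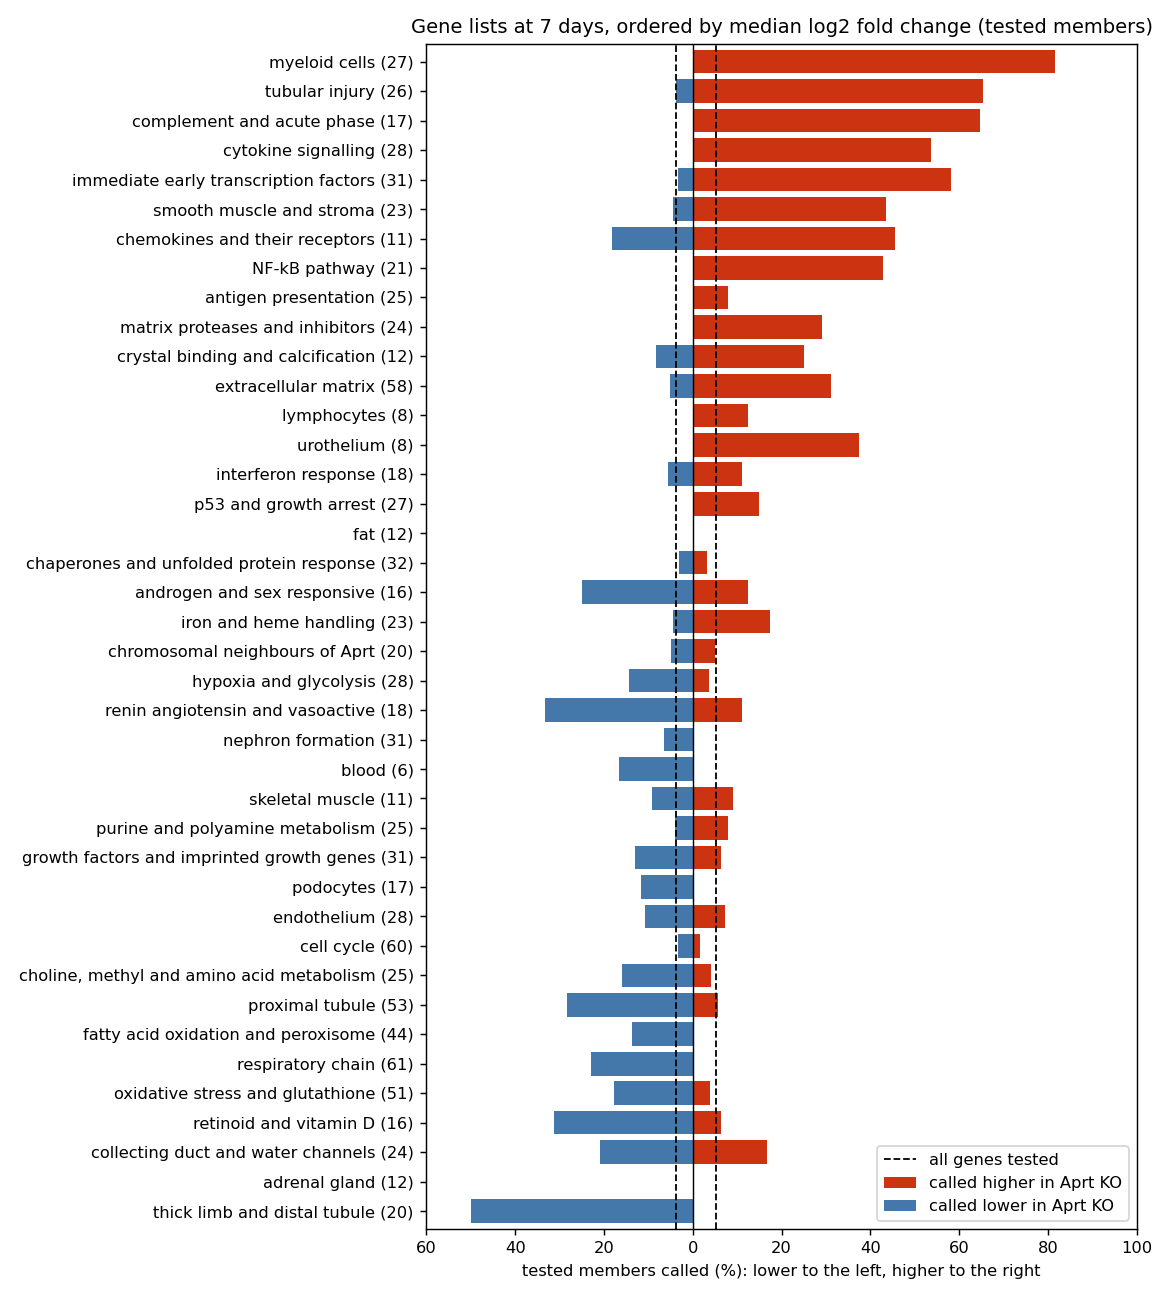
Share of tested members of each of 40 gene lists called lower (blue, to the left) and higher (red, to the right) in arrays labelled Aprt KO, with the number tested in brackets. Dashed lines give the shares over all genes, 5.22% higher and 3.79% lower. Myeloid, tubular injury, complement, immediate early and cytokine lists extend farthest to the right, and the thick limb and distal tubule list farthest to the left.

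**Figure D4:**
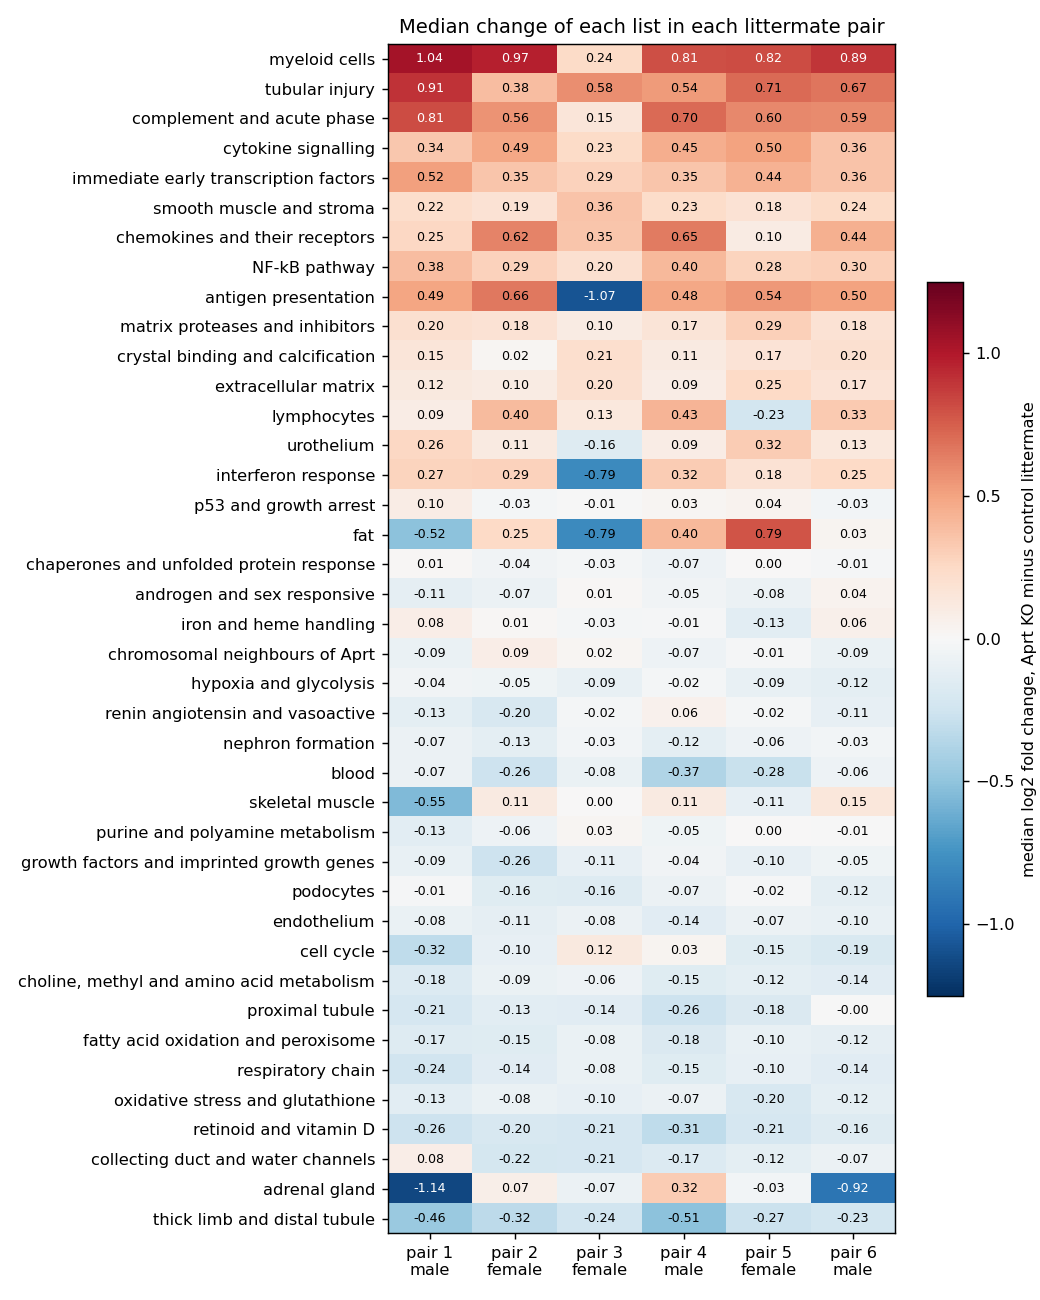
Median log2 fold change of each list (rows) in each littermate pair (columns, with sex), from blue (lower in the array labelled Aprt KO) to red (higher). Antigen presentation reads -1.07 and interferon -0.79 in pair 3, while both are above 0 in the other 5 pairs, and the adrenal list reads -1.14 and -0.92 in pairs 1 and 6.

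The response was compared between the sexes. For the difference between male and female pairs, limma called 0 of 6771 probe sets (0.0%), with a smallest adjusted p of 0.988, and 276 (4.08%) had an unadjusted p under 0.05. Without pair 4 the count was 2, and without pair 6 it was 1. With 3 pairs of each sex this does not show that the sexes respond alike. The Sprr2f rise was 4.78 in female and 5.53 in male pairs, and the Lcn2 rise 3.35 and 3.60. For Fos they were 1.81 and 1.67, and for Egf -0.87 and -1.48.

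The 7-day response was then set against that at 1 month, where limma called 80 of 6771 probe sets (1.18%). This fit took its probe sets by mean signal over all 18 arrays, and 6673 of them were also tested at 7 days; Cxcl5 and Ltb were not among them. The genotype effect itself differed between the ages for 109 probe sets (1.61%), with the litter pair as a block; the count was 71 without pair 2 and 28 without the litter pair in the model. Of the 109, 42 were called higher and 33 lower at 7 days. Of those 42, 39 were higher at 7 days than at 1 month. Of the 33 called lower at 7 days, 31 had a 1-month estimate above 0. Both sets were chosen by the 7-day effect and its difference from 1 month. These directions are favoured by that choice and are not separate support. Anything else that differed between the 2 sets of mice cannot be told apart from age.

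Sprr2f, Il1rn and Bcl3 were called at 7 days and not at 1 month, where their log2 fold changes were -0.21, 0.08 and -0.02 (limma adjusted p of the difference 1.1e-05, 0.00471 and 0.000263). Fos read 1.74 at 7 days and -0.63 at 1 month (0.00196), and Egr2 1.93 and -0.31 (0.00346). Socs3, Cd14 and Clu had smaller 1-month values too, 0.22, 0.41 and 0.37 (0.00147, 0.000806 and 0.0105). Lcn2 was called higher at both ages, by 3.47 and 1.62 (0.00151).

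Among genes lower at 7 days, Cdkn1c read 0.51 at 1 month (9.13e-05), Klk1 0.23 (0.00516), Egf -0.04 (0.0148), Aldh1a3 0.89 (0.00509) and Gsta4 0.61 (0.00441). The genotype effect on 3 stromal matrix genes was larger at 1 month. Col1a1 read 0.39 at 7 days and 1.47 at 1 month (0.00242), Dcn -0.21 and 0.83 (0.000729), and Lum -0.20 and 0.90 (0.00145); Dcn and Lum were not called at 7 days. For Timp1 (0.99 and 0.96) and S100a6 (1.19 and 1.07) the difference between ages had a limma adjusted p of 0.988 and 0.885.

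**Figure D5:**
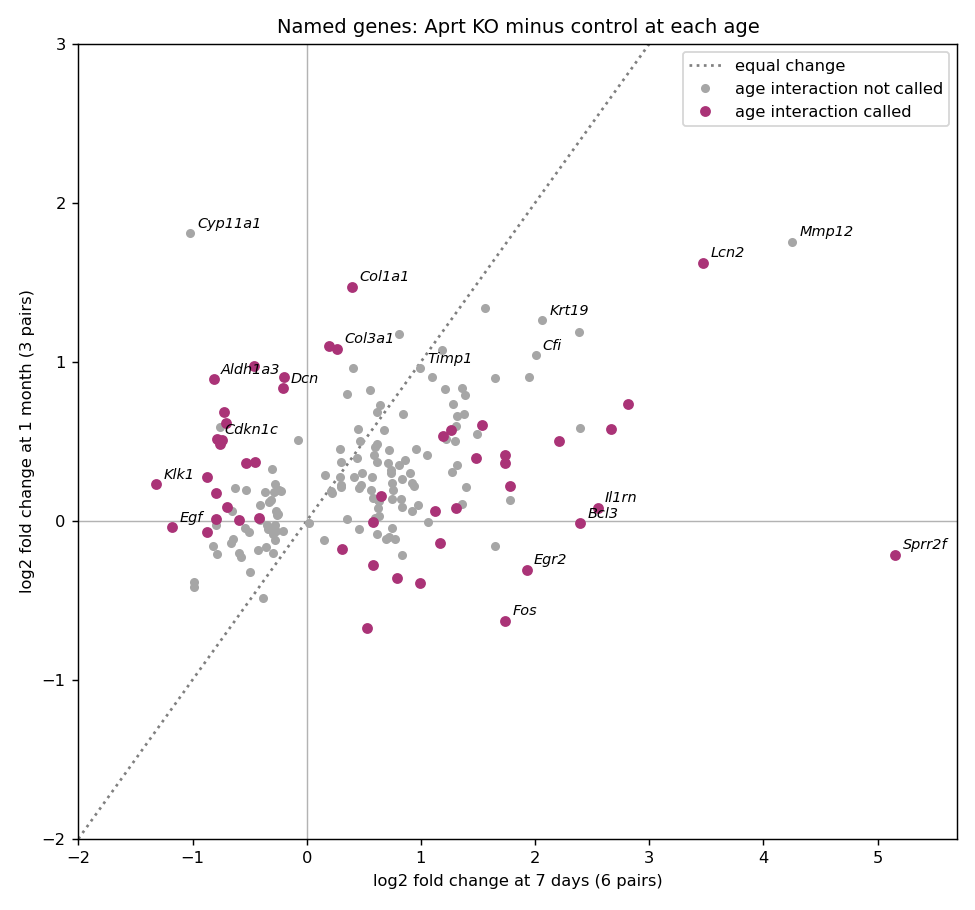
Log2 fold change (Aprt KO minus control) of the named genes at 7 days (x axis, 6 pairs) against 1 month (y axis, 3 pairs). Purple points are genes whose genotype effect differed between the ages by limma, grey points the others, and the dotted line marks equal change. Sprr2f, Il1rn, Bcl3, Egr2 and Fos lie to the right with y values between -0.63 and 0.08, Col1a1 lies above the line at 0.39 and 1.47, and Mmp12 (4.25 and 1.76) was not called for a difference.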

How the data were processed

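Kidney RNA of 12 mice aged 7 days was measured on 1 Affymetrix array each. The deposited values are intensities, made by the authors with GCOS and the MAS5 algorithm per the submitters' processing notes. The labels state no version for them, nor a target for the scaling. Detection calls were not used here. Of 12488 probe sets, 10833 carry 1 gene symbol in the platform annotation and 6771 of these, with a mean signal over the 12 arrays at or above the 40th percentile (123), were tested, covering 5746 genes. All 18 deposited columns were mapped to samples by their names, and 0 were left out.

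Log2(signal + 29) was fitted with limma 3.58.1 in R 4.3.3 (lmFit, eBayes with trend), with the litter pair as a block, and p-values were Benjamini-Hochberg adjusted over all probe sets tested. The model left 5 residual degrees of freedom, and the number of arrays limits the precision. Replicates are separate mice. Pairs come from the littermate notes in the labels. Littermates' deviations from their group means correlated at 0.225 to 0.672, and those of other control and Aprt KO arrays at -0.418 to 0.444; 6 of 12 arrays correlated best with their own littermate. Sex and age differences were interaction terms of the same kind of model. The procedure was tested on simulated data. Figures were drawn with matplotlib 3.10.9.

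Named genes were, among called genes of 1 direction in all 6 pairs, the 15 that rose most and the 15 that fell most, up to 4 called members of each of 40 lists with the smallest p, the 5 largest rises and 5 largest falls in each interaction, a set of single genes, and further genes chosen after their values were seen. The members and lists were chosen with earlier results of these data known. Motifs were searched in RefSeq promoter windows of GRCm38.p6, which 4645 of the genes tested had. Alternatives covered the block, pseudocount, filter, normalization, probe set choice and each pair left out.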

Additional observations from a re-analysis of the deposited data

Results flagged for a closer look

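Among 458 groups of 6 arrays examined (the named genes and the summed signals of the lists), 68 held 1 array far from the other 5 by Dixon's test, 56 of them for named genes. For separate groups not chosen by their values, chance would give about 1 in 20. Some of these genes were named after their values were seen, and many flags come from the same few arrays. The 68 can therefore not be set against that share. All signals below are linear.

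The control of pair 3 read above the other 5 controls for the antigen presentation, interferon and myeloid genes Lyz2 (618), Ctss (845), Cd74 (5370.5), Cd53 (189), H2-Aa (3163), H2-Ab1 (2285), H2-Eb1 (2828), H2-K1 (8841), H2-D1 (7283), B2m (14692), Psmb8 (2727), Psmb9 (1052), Iigp1 (4594), Gbp2 (814) and Irf1 (586) and for the metabolic kinase Pdk1 (1105). Its summed signals of the antigen presentation (65563) and interferon response (20284) lists were above as well, and it was below the others for Hsd11b2 (764). For Iigp1 the other 5 controls read 19.9 to 59.4, and for B2m 3362 to 5508.

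The array labelled Aprt KO of pair 3 read below the other 5 for Hsd11b2 (605), Cd74 (2395), H2-Ab1 (562), H2-K1 (2871), H2-D1 (2335), Iigp1 (15.3) and Irf1 (368) and above them for Mep1b (592) and Postn (3058).

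In pair 4, whose 2 arrays had the compressed upper range, the control read below the others for Ddit4 (362), Sdhb (4157), Il6ra (26) and Slc34a1 (6147) and above them for the epithelial genes Cldn4 (1601) and Krt8 (4229). The array labelled Aprt KO of that pair read below the others for Miox (3811), Dpep1 (419), Gadd45g (220.0), Sdhb (3260.2), Kap (5675), Napsa (7497), Clu (3183), Xdh (12.2) and Slc34a1 (4241) and above them for Gadd45b (449), Aprt (135) and Krt8 (6146). Its summed signals were below for the lists of immediate early transcription factors (35477), matrix proteases and inhibitors (38169), proximal tubule (83576), growth factors and imprinted growth genes (43117), oxidative stress and glutathione (107169) and chromosomal neighbours of Aprt (15126), and above for skeletal muscle (5865). The control's summed signals were below for oxidative stress and glutathione (116028) and respiratory chain (219920.0).

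In pair 2, the array labelled Aprt KO read above the other 5 for the immediate early and leukocyte genes Fos (691), Cd53 (457) and Nr4a1 (604), for the steroid synthesis genes Cyp11a1 (466) and Star (327) and for the summed signal of the adrenal gland (13811) list. In pair 1, the control read below the others for Egr2 (34), Aldh1a3 (450.3) and Gsta4 (382). In pair 6, the control read above the others for Thy1 (547) and below for Cxcl1 (19.4), and the array labelled Aprt KO read above for Psmb8 (581) and below for Egr1 (486).

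For 49 of 189 named genes the genotype effect differed between 7 days and 1 month by limma's interaction test with Benjamini-Hochberg adjustment, and the value given is the 7-day minus the 1-month log2 fold change. It was above 0 for the epithelial and secreted genes Sprr2f (5.37), Sprr2g (1.06), Sprr2i (1.23), Lcn2 (1.85), Clu (1.37), Krt8 (0.49), Aoc1 (0.93), Serpina3n (2.08) and Tgfbi (0.66), for the signalling and leukocyte-recruiting genes Ccl9 (2.08), Cx3cl1 (0.69), Icam1 (1.08), Il1rn (2.47), Osmr (1.71), Stat3 (0.59), Socs3 (1.55), Bcl3 (2.41) and Cd14 (1.33), for the immediate early genes Fos (2.37), Junb (1.38), Egr1 (1.15), Egr2 (2.24), Ier3 (1.30) and Gadd45g (1.20), and for the enzymes Pnp (0.49) and Cyp2e1 (0.86). It was below 0 for the tubule genes Klk1 (-1.55), Klk1b5 (-1.15), Egf (-1.14), Hsd11b2 (-0.81), Slc4a1 (-0.97), S100g (-0.79), Slc12a3 (-0.90), Kcnj1 (-0.43), Miox (-0.60), Aldh1a3 (-1.70), Gsta2 (-1.25), Gsta4 (-1.32) and Ak4 (-0.81), for the matrix genes Col1a1 (-1.08), Col1a2 (-0.90), Col3a1 (-0.82), Lum (-1.11), Dcn (-1.04) and Ogn (-1.24), and for Cdkn1c (-1.30), Icam2 (-0.83), Upk2 (-1.44) and Tyms-ps (-1.41).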

How the results depend on the processing

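The count of probe sets called higher (339) and lower (237) was 167 and 40 without the litter pair (replicate block), 161 and 38 with all 18 arrays and no block, 196 and 96 with only the 4 pairs whose animal names begin with M, and 128 and 24 with only the pairs whose Aprt signals lay on their labels' sides, the last 2 fits using fewer arrays. Leaving out each pair in turn gave 264 to 336 higher and 139 to 234 lower, with 234 and 113 called each time. The age interaction (109) was 28 without the block and 71 to 135 with a pair left out, and the sex interaction (0) was 0 to 2. The brightest Aprt probe set was at -0.58 (limma adjusted p 0.0594). It passed with a random block (-0.58, p 0.0363), all 18 arrays blocked (-0.58, 0.0338), quantile normalization (-0.61, 0.0334) and median centring (-0.60, 0.0342). It also passed without pair 2 (-0.71, 0.0327) or 4 (-0.69, 0.0388), and with a pair left out it spanned -0.71 to -0.45. In the Aprt-side pairs it was at -1.11 (limma adjusted p 0.00328). Those pairs were chosen by this same probe set, so its fall in them was fixed by the choice. That value is therefore not a check of the labels. The cause of the shifts between settings was not tested. Of 168 named genes called, 74 kept the call wherever they had a value (in all 22 alternatives for 58, in 18 to 21 for 16), 0 changed sign where they had one, and 25 lost it when some pair was left out. Of 1760 counts over gene lists under the alternatives 310 moved by over 1.5 times. Of 880 list medians 23 moved by more than the SD between pairs and 26 had the other sign, among them renin angiotensin and p53 (6 alternatives each), interferon response (4) and fat (3). Named genes with values of the other sign were not called: Umod (-1.1e-05 with median centring, -0.046 to 0.072 with a pair left out, the former without pair 3), and, with the M pairs, H2-D1 (-0.076), B2m (-0.00069) and Psmb8 (-0.015). With the Aprt-side pairs they were H2-K1 (-0.016), H2-D1 (-0.017), B2m (-0.053), Psmb8 (-0.17) and Psmb9 (-0.72), and Psmb9 was at -0.049 (without pair 4) to 0.24 (without pair 6) with a pair left out. Dim probe sets, such as those of Aprt and Xdh, are near background and limit what can be read from them.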

Other observations

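Genes of neighbouring tissues and of a few further groups were also counted. Of 8 urothelium genes tested, Sprr1a (0.81), Sprr2f and Elf3 were called higher, with a list median of 0.07, and the uroplakin Upk2 had a log2 fold change of -0.47 at 7 days and 0.97 at 1 month. Fat genes moved in both directions between littermates, with pair medians from -0.79 in pair 3 to 0.79 in pair 5 and 0 of 12 called by limma (1 higher and 2 lower at an unadjusted p under 0.05). Of 11 skeletal muscle genes, the calcium-binding Pvalb, which the distal tubule also makes, was called lower (-0.63, lost without pair 1, 4, 5 or 6, limma adjusted p 0.0567 to 0.0693) and Casq1 higher (0.36, lost without pair 2, 3, 4, 5 or 6, 0.0691 to 0.115). Among 16 androgen and sex responsive genes, Cyp2e1 and Gusb were called higher and Kap, Adh1 (-0.62), Hsd3b2 (-0.26) and Napsa (-0.20) lower. Among 32 chaperones, Hspb8 (0.41) was called higher and Cryab lower. The Gusb call was lost without pair 2 (limma adjusted p 0.0517) and that of Hspb8 without pair 2, 4 or 5 (0.0517 to 0.07).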
